A study of Homo sapiens with 8 samples.

Results

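The signals described here are those of 59 expression probes, out of 48803 on the array (0.121%), at which each of 3 prostate cancer cell lines lay at least 4-fold above the control line RWPE-1. They were chosen by these same values: in the authors' deposited log2 table the RWPE-1 value was at least 2 below that of each cancer line. The distance from RWPE-1 is therefore given below as a description, with no test. The 59 probes were divided by where RWPE-1 itself lay, in the raw intensities, against the median probe of its own array. At 10 probes the RWPE-1 signal was below that median (the dim set), and at 49 it was above it (the bright set).

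DU145, LNCaP-FGC and PC3 are established human lines grown from metastases of prostate carcinoma, and the labels call them prostate cancer lines. LNCaP-FGC is androgen-sensitive and carries the androgen receptor, the hormone-bound transcription factor on which prostate epithelium depends, whereas DU145 and PC3 grow without androgen. RWPE-1, labelled as the normal prostate control, is a line of prostate epithelium immortalized with a papillomavirus, so the control is itself a cell line and not tissue. Total RNA of each line was labelled with biotin and hybridised once to an Illumina HumanHT-12 beadchip, with 3 cancer arrays and 1 control array, no treatment named in the labels and no repeat array of any line. A beadchip probe reads the abundance of the transcript that it matches, as a brightness. In RNA of a whole culture, fewer cells that make a transcript and less of it per cell cannot be told apart. The tables used here do not pair the probes with genes, so identifiers are given for 2 probes and the others are described by their values, with no gene list, cell type marker or sequence set beside them.

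The 4 arrays had different raw scales. For DU145, LNCaP-FGC, PC3 and RWPE-1, the brightest 5% of probes lay above raw intensities of 3018, 2814, 3095 and 2192, and the median probes were at 178, 182, 154 and 151. RWPE-1 thus had the lowest upper range. In the deposited table all columns share a median of 7.37 and a span of 6.57 to 16.03, so this gap had been removed. The number of arrays limits the precision of every value below.

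The rule asked for the difference in every cancer line at once. For the single lines, a 4-fold higher value than RWPE-1 was found for LNCaP-FGC at 606 probes (1.24%), for PC3 at 581 (1.19%) and for DU145 at 526 (1.08%). These 3 comparisons share the RWPE-1 array. A probe can meet the rule only if every cancer line reaches 8.57, which is the floor of the table plus 2, and 7654 probes did so. The 59 were 0.771% of those. In the other direction, RWPE-1 lay at least 4-fold above every cancer line at 269 probes, which were 2.70% of the 9970 probes with an RWPE-1 value of at least 8.57. These shares have unlike bases: the first asks for 8.57 in all 3 cancer lines, the second in RWPE-1 alone.

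In the cancer lines these probes were bright, which the rule in part requires, as it can be met only at 8.57 or more there. It likewise places RWPE-1 lower, so the levels below are a description. Their median raw intensity was 3502 in LNCaP-FGC, 2940 in DU145 and 2659 in PC3, against 297 in RWPE-1. Of the 59 probes, 51 were among the brightest 10% of the DU145 array, 52 of the LNCaP-FGC array and 47 of the PC3 array, and 2 were among the brightest 10% of the RWPE-1 array. At 33 probes every cancer line was at least 10 times as bright as its array's median probe, a count given without its share over all probes. The lowest raw value of any of these probes in a cancer line was 609, in LNCaP-FGC, which was 3.34 times the median of that array. In RWPE-1 they ranged from 120 to 1305, or from 0.790 to 8.63 times the array median. The signals were well inside the measured range in the cancer lines. In RWPE-1 they ran from the dimmest 5% of the array up to its brightest 10%.

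The distance between RWPE-1 and the nearest cancer line is called the gap. It ran from 2 to 5.54 on the log2 scale with a median of 2.31, so most probes met the rule by a small margin. The gap was within 0.25 of the threshold at 28 probes (47.5%) and within 0.5 of it at 36 (61.0%). Of the 10 dim probes, the gaps ran from 2.01 to 3.65, and the bright ones spanned the whole range. At the inner edge, the probe with the smallest gap had 8.82 in RWPE-1, 11.23 in LNCaP-FGC, 11.29 in DU145 and 10.82 in PC3, a gap of exactly 2. The next probe inside it had 7.25, 9.26, 10.04 and 10.19 in the same order, a gap of 2.01. Just outside, the nearest 2 probes had a gap of 1.99. One of these had 7.61 in RWPE-1, 9.78 in LNCaP-FGC, 10.65 in DU145 and 9.60 in PC3, and the other had 7.67, 11.66, 9.66 and 11.29 in that order. The gaps ran on across the threshold without a break, so the list is a slice of a continuous range.

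At 12 probes (20.3%) every cancer line was at least 8-fold above RWPE-1, at 2 probes at least 16-fold, and at 1 probe at least 32-fold. Counted line by line, an 8-fold difference was reached at 34 of the 59 probes in LNCaP-FGC, 26 in DU145 and 21 in PC3. A 16-fold difference was reached at 18, 8 and 4 probes in the same order. The median difference from RWPE-1 was 3.40 for LNCaP-FGC, 2.79 for DU145 and 2.70 for PC3 on the log2 scale. Over all probes of the array it was 0.01, 0.01 and 0.00 in the same order. Over the 5437 probes with 9.26 or more in every cancer line it was 0.27, 0.27 and 0.28. The rule set each difference of the 59 at 2 or more, so their distance from these medians is no result. Within the 59, 8-fold and 16-fold differences were reached most often in LNCaP-FGC. These are the differences that the rule used, so the counts are a description only. That line also had the most probes 4-fold above RWPE-1 over the whole array, 606 against 581 for PC3 and 526 for DU145. As shares of all probes these were close, at 1.24%, 1.19% and 1.08%. No 8-fold or 16-fold share over all probes is given here.

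Probe ILMN_2108735 had the largest gap of the 59. Its log2 value was 8.63 in RWPE-1, 15.01 in LNCaP-FGC, 14.36 in DU145 and 14.17 in PC3. All 3 cancer lines lay within 0.84 of one another and at least 5.54 above the control. In raw intensity it read 35425, 24859 and 20668 in the same cancer lines against 361 in RWPE-1, and the dimmest cancer line was 57.2 times as bright as RWPE-1. Its log2 value in LNCaP-FGC was also the highest of the 59 in any line, while in raw intensity another probe was slightly brighter, at 36037 in DU145.

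The second probe by gap was the most even of the leading ones. Its values were 12.04 in LNCaP-FGC, 12.16 in DU145 and 12.17 in PC3, a range of 0.13, against 7.70 in RWPE-1. Its raw intensity was 4415, 5372 and 5345 in the same lines and 190 in RWPE-1. The third had 12.51, 12.36 and 12.22 against 8.39, a range of 0.29 beside a gap of 3.83. In these leading probes the cancer lines lay much closer to one another than to RWPE-1. They were ranked by that same distance from RWPE-1, which favours such a pattern, so this is a description only.

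The highest RWPE-1 level among the 59 was 10.60, a raw intensity of 1305. That probe read 14.44 in LNCaP-FGC, 13.75 in DU145 and 14.23 in PC3. The rule thus also took a probe whose control signal was 8.63 times the median probe of that array. At 28 of the 59 probes (47.5%) the RWPE-1 raw signal was at least 2 times the array median.

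The 10 probes of the dim set had RWPE-1 raw intensities of 120 to 150, with a median of 139, where the median probe of the array was at 151. They were 0.0410% of the 24401 probes with an RWPE-1 signal below the median, and the 49 bright probes were 0.201% of the other 24402. The raw table used here has no detection p-values or background readings, so whether RWPE-1 made any of these transcripts is not known. The same limit holds for the bright set, whose lowest RWPE-1 raw intensity was 152, or 1.01 times the array median. For the dim set, differences from such low values are therefore also given as bounds. With the median probe of 7.37 in place of the RWPE-1 value, the nearest cancer line was at least 3.71-fold to 9.85-fold higher over the 10 probes, and at least 4-fold at 7 of them.

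Probe ILMN_1730054 had the largest gap of the dim set and the lowest RWPE-1 value of all 59. Its log2 value was 7.02 in RWPE-1, 11.59 in LNCaP-FGC, 11.60 in DU145 and 10.67 in PC3. DU145 and LNCaP-FGC were nearly equal and PC3 was 0.93 below DU145, though still 3.65 above RWPE-1. Raw intensities were 120, 3171, 3482 and 1809 in the same order, so RWPE-1 read 0.790 times its array's median probe. Without PC3 the gap of this probe was 4.57.

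The second of the dim set had the reverse order among the cancer lines, with 7.05 in RWPE-1, 10.60 in LNCaP-FGC, 10.22 in DU145 and 11.20 in PC3. The smallest gap of the dim set was at a probe with 7.25 in RWPE-1, 9.26 in LNCaP-FGC, 10.04 in DU145 and 10.19 in PC3. Its LNCaP-FGC raw intensity of 609 was the lowest of the list in a cancer line. The dim set thus held probes led by each of the cancer lines, with DU145 highest at 4, LNCaP-FGC at 4 and PC3 at 2.

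The rule set no limit on how far the cancer lines differed among themselves. It did place each of them at least 2 above RWPE-1, so these differences are not free of the rule. The range over the 3 lines, highest minus lowest, ran from 0.06 to 3.95 with a median of 0.98 on the log2 scale. For reference, 5437 probes of the array were at least as bright in every cancer line as the lowest value of the list (9.26 or more), the 59 included, and their median range was 0.84. All 3 cancer lines lay within 2-fold of one another at 31 of the 59 probes (52.5%) and at 60.6% of the 5437. The range was at least 4-fold at 6 of the 59 (10.2%) and at 6.25% of the 5437. The 5437 probes were matched on brightness in the cancer lines alone, with no condition on their distance from RWPE-1. With 1 array per line there is no replicate error to set these shares against, and they were not tested.

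Among the 59 probes, the dim set was less even than the bright set. Its median range over the cancer lines was 1.55 against 0.93 in the bright set, and the range was at least 4-fold at 3 of 10 dim probes and 3 of 49 bright ones. The widest was a dim probe with 7.13 in RWPE-1, 9.34 in LNCaP-FGC, 13.29 in DU145 and 11.28 in PC3. Here DU145 was 6.16 above the control and LNCaP-FGC only 2.21, so the lines differed from one another by more than the nearest differed from RWPE-1. That was the case at 3 of the 59 probes, 2 of them dim. The most even probe of all was a bright one with 11.35 in DU145, 11.41 in both other cancer lines and 9.24 in RWPE-1. These values have no replicate check, and the sets also differed in brightness. In the dim set the nearest cancer line lay a median of 2.205 above the median probe, against 3.82 in the bright set. Whether the ranges differ at equal brightness was not tested.

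LNCaP-FGC was most often the brightest cancer line among the 59, which were chosen by their distance from RWPE-1. It was above both others at 30 of the 59 probes (50.8%), DU145 at 15 (25.4%) and PC3 at 12 (20.3%), with 2 ties. Over the 5437 probes of at least that brightness the shares were 33.8%, 33.7% and 31.5%. PC3 was lowest at 26 probes (44.1%), DU145 at 21 (35.6%) and LNCaP-FGC at 11 (18.6%), with 1 tie, against 35.6%, 31.2% and 31.97% of the 5437. LNCaP-FGC exceeded DU145 by over 2-fold at 16 of the 59 probes (27.1%, against 10.8% of the 5437) and PC3 at 17 (28.8%, against 12.2%). DU145 exceeded LNCaP-FGC by over 2-fold at 3 probes (5.08%, against 9.34%), and PC3 did so at 3 (5.08%, against 10.6%). DU145 and PC3 lay within 2-fold of each other at 48 of the 59 probes (81.4%), close to the 79.9% of the 5437. The pairs with LNCaP-FGC were within 2-fold at 67.8% of the 59 for DU145 and 66.1% for PC3, against 79.9% and 77.2% of the 5437.

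The count of probes led by LNCaP-FGC moved with the scaling of the arrays, and the share over the 5437 probes moved with it. With raw intensities scaled to a common median, LNCaP-FGC was the brightest at 24 of the 59 probes (40.7%) and PC3 at 19, where the 5437 probes had LNCaP-FGC highest at 23.0% and PC3 at 47.6%. Without normalization it was the brightest at 28 of the 59 (47.5%) and at 29.9% of the 5437. LNCaP-FGC thus led more of the 59 probes than either other cancer line in the deposited table and in both of these, each time at a larger share than over the 5437. The 59 were chosen to lie far above RWPE-1 and the 5437 were not, so these shares have unlike bases. The scalings share the same arrays and probes, so they are no separate support. These shares were not tested.

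Levels at the 59 probes were correlated from line to line, which the rule itself favours. Over the 59 probes Pearson's r of log2 values was 0.779 for DU145 and PC3, 0.697 for LNCaP-FGC and PC3 and 0.636 for DU145 and LNCaP-FGC. With RWPE-1 it was 0.764 for PC3, 0.602 for DU145 and 0.588 for LNCaP-FGC. Over all probes every pair had 0.875 to 0.923. The correlations are across probes, which are not independent replicates and which share their arrays. The rule also narrowed the span of levels, and all values were normalized to 1 distribution. At every probe it held RWPE-1 at least 2 below the lowest cancer line, which favours a positive r. These r values are therefore a description only.

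Setting each line in turn against the other 3 shows how often a 4-fold deficit of a single line occurred in this series. The count was 59 for RWPE-1 (0.121% of probes), 53 for PC3 (0.109%), 21 for DU145 (0.0430%) and 172 for LNCaP-FGC (0.352%). RWPE-1 was therefore not the line most often low. For a 4-fold excess the counts were 269 for RWPE-1 (0.551%), 211 for LNCaP-FGC (0.432%), 156 for PC3 (0.320%) and 89 for DU145 (0.182%). In every line a lone excess was more frequent than a lone deficit, and the ratio of deficits to excesses was 0.219 for RWPE-1, 0.236 for DU145, 0.340 for PC3 and 0.815 for LNCaP-FGC. A deficit needs a high value in 3 lines and an excess in 1. With 4 lines there are 4 such splits, too few for a test.

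Each cancer line limited the list. Without LNCaP-FGC the rule was met at 149 probes, without PC3 at 137 and without DU145 at 105, each time with the 59 among them by construction. The number also depended on how the raw intensities were processed. A background correction gave 106 probes, with all 59 retained, and unnormalized intensities gave 101, also with all 59. Scaling to a common median gave 70, with 53 of the 59. In all, 53 of the 59 probes, 8 of them dim, met the rule in the deposited table and in each of 4 tables made from the raw intensities.

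Background correction widened the differences most where RWPE-1 was dim. Such a correction acts most on low signals, and the sets were split by that signal, so this is no separate result about the probes. The median gap of the dim set went from 2.39 in the deposited table to 3.05, and that of the bright set from 2.31 to 2.66. At ILMN_1730054 the gap went from 3.65 to 4.55, and at ILMN_2108735 from 5.54 to 5.85.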

How the data were processed

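Expression of DU145, LNCaP-FGC, PC3 and RWPE-1 was measured on 1 array each. The authors deposited raw intensities per probe, taken from BeadStudio 3.1.3 per the labels, and their lowest values of 92.3 to 104 show no background subtraction. The deposited log2 values share 1 distribution across the arrays, as quantile normalization would give. They differed from log2 raw intensities quantile normalized here by at most 0.0888. How that table was made is not given in the sources. Columns were matched to samples by name or accession.

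The 4-fold rule was applied to the deposited log2 table. The alternatives, made with limma 3.58.1 in R 4.3.3, were normexp background correction (offset 50) with quantile normalization, quantile normalization alone, a common median, and no normalization. Others were 3-fold and 8-fold thresholds, a filter on dim probes, and leaving out each cancer line. The rule was tried on simulated data. No test was run: the contrast chose the probes, and each line had 1 array.

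The probes and the gene lists drawn up were chosen with earlier results of these data known. As the tables used here pair neither probes nor methylation sites with genes, the lists and the planned methylation comparison were not used. The identifiers given are those of the largest gap in the bright and in the dim set; probes described by value alone were picked after their values were seen.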

Additional observations from a re-analysis of the deposited data

How the results depend on the processing

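The number of probes at least 4-fold higher in every cancer line, 59 in the deposited table, was 106 with background correction and 101 without normalization. It was 136 at a 3-fold and 12 at an 8-fold threshold, and 105 to 149 with 1 cancer line left out. Quantile normalization of the raw intensities gave 57 and a common median 70. A filter on probes dim in the cancer lines left 59, as it had to, since the rule already requires brighter values there. The 10 dim probes became 23 with background correction, 18 at 3-fold, 2 at 8-fold and 17 to 30 with 1 line left out. A lower threshold or 1 line less can only add probes; for background correction and no normalization the cause was not tested. With DU145 as the low line, 21 probes became 41 with background correction, 61 at 3-fold and 4 at 8-fold. With PC3 low, 53 became 99 at 3-fold and 12 at 8-fold, and with LNCaP-FGC low, 172 became 71 at 8-fold. RWPE-1 as the high line went from 269 to 456 at 3-fold and 108 at 8-fold. PC3 was the brightest cancer line at 19 of the 59 probes with a common median in place of 12, and the cause was not tested. Without normalization the median of all probes lay 0.24, 0.27 and 0.04 above RWPE-1 in DU145, LNCaP-FGC and PC3. No paired analysis was possible because the labels give no replicate numbers and each line has 1 array. The methylation alternatives were not run. With no background reading used here, how far the RWPE-1 values of the dim or the bright set lie above background is unknown.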
